A study of Mus musculus with 3 samples.

Results

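Melanocyte-lineage nuclei were picked out of a mouse skin single-nucleus ATAC-seq data set by their open chromatin at 9 melanocyte marker genes, and were compared with every other nucleus of the same condition. A nucleus was a member when at least 3 open features, that is 500 bp regions with a count above 0, overlapped the gene bodies plus 2 kb of Mlana, Tyrp1, Tyr, Pax3, Kit, Slc45a2, Gpr143, Sox10 and Mitf. Its share of open features there also had to reach 1.5 times the 0.120% found in all nuclei pooled. These requirements chose 1926 of 12348 nuclei (15.6%): 76 of 2042 in telogen, 685 of 3753 in anagen and 1165 of 6553 after UVB. The other 10422 nuclei form the comparison. Dct was kept out of the choice because the mice carry Dct promoter sequence in a transgene.

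All groups were Dct-rtTA; Tre-H2B-GFP mice, whose dorsal skin was taken after they had been given doxycycline in their drinking water for 5 days, which puts a GFP-tagged histone into cells that use the Dct promoter. GFP-positive nuclei had been sorted from 12 telogen mice (the resting phase of the hair cycle), from 8 anagen mice (the growth phase, begun here by shaving and depilation cream) and from 24 mice exposed to UVB 3 times at 2.2 mJ/cm2. The age is given as 7 weeks in one label and 8 weeks in another. Animals had been pooled, telogen and anagen shared a library, and UVB came as 2 technical replicates whose nuclei could not be told apart here. Each condition was therefore 1 sample: no test between conditions or groups was possible, UVB and its libraries cannot be told apart, and all intervals are 95% intervals for counting error only. Fewer melanocytes in the skin and fewer labelled melanocytes in the sort cannot be told apart either.

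Melanocytes come from the neural crest and make melanin inside organelles called melanosomes, which they hand over to keratinocytes. Mitf, a basic helix-loop-helix factor, is the central regulator of their pigment genes and binds short E-box and M-box sequences, while Sox10 and Pax3 act on the Mitf promoter and Kit is a receptor they need to survive and migrate. In mouse back skin the melanocyte stem cells rest in the hair follicle during telogen, give rise to pigment-making cells of the hair bulb during anagen, and can move towards the epidermis after UVB.

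A few regulatory sequences help to read the values that follow. The M-box AGTCATGTGCT, read here as the 11 bases around the E-box CATGTG nearest the Tyr start, was found on either strand in 3 of 21263 RefSeq promoter windows of protein-coding genes (GRCm38.p6, 250 bases before to 50 after a start), a share of 0.014%. They belong to Tyr and Tyrp1, which encode enzymes of melanin synthesis, and to the complement gene C1qb, whose window was open in 1 member. The Tyr site lies at chr7:87493516-87493545 on the minus strand and the Tyrp1 site at chr4:80834155-80834184 on the plus strand. The M-box begins 24 bases before the Tyr start and 49 bases before the Tyrp1 start. Capitals mark it in the 30 bases around each site.
Tyr site: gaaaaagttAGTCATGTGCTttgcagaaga
Tyrp1 site: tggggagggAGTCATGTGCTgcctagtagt

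Mitf has several starts, and the last of them opens the melanocyte form of the gene. The 250 bases before it, at chr6:97991533-97991782 on the plus strand, are shown because the start-by-start values below turn on them. Capitals mark TGACGTCA, the palindromic cAMP response element that the CREB factor binds, 153 to 146 bases before the start. That element was found in 2.23% of the promoter windows.
Mitf, melanocyte start: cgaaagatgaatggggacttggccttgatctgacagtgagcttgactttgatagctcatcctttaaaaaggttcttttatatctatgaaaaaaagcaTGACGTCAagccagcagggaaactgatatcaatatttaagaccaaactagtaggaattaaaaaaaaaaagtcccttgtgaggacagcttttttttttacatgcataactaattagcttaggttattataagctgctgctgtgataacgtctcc

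Rab27a encodes a small GTPase that ties melanosomes to the actin motor myosin Va through melanophilin. RefSeq gives it a pair of starts, and the 250 bases before the second one, at chr9:73063898-73064147 on the plus strand, are shown for the same reason. Capitals mark the E-box CACGTG, 246 to 241 bases before that start, a motif held by 7.84% of the promoter windows.
Rab27a, second start: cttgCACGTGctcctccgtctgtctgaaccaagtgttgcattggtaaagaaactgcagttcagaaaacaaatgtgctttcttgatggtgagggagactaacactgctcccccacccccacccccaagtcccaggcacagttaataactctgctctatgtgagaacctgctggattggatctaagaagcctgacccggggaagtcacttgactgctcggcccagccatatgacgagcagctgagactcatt

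Dct encodes dopachrome tautomerase, the third enzyme of the family. The 250 bases before its start, at chr14:118052247-118052496 on the minus strand, hold the E-box CATGTG 150 to 145 bases before the start and its reverse complement CACATG 232 to 227 bases before it. They are shown because an endogenous start and transgene promoter sequence would both be counted there.
Dct: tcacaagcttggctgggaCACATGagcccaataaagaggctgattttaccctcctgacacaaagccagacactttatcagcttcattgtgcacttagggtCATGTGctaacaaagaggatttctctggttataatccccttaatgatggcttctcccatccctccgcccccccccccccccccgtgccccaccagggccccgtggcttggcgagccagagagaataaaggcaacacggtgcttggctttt

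The share of melanocyte-lineage nuclei was 3.72% in telogen (interval 2.94% to 4.64%), 18.3% in anagen (17.0% to 19.5%) and 17.8% after UVB (16.9% to 18.7%). The telogen interval lay below both others, and the anagen and UVB intervals overlapped. The share also moved with depth. Members had a median of 1011.5 open features in telogen, 2260 in anagen and 1326 after UVB, against 928.5, 776 and 868 in the other nuclei. Of the anagen nuclei with at most 500 open features 1.07% were members, of those with 1000 to 2000 24.0%, and of those with more than 4000 67.1%. Telogen and UVB peaked in between: the same shares were 1.64%, 5.71% and 0.917% in telogen and 2.18%, 29.9% and 16.8% after UVB. When every nucleus was thinned to 500 open features and shallower nuclei (302 telogen, 738 anagen and 957 UVB) were left out, the shares were 1.44%, 6.10% and 5.95%. The same nuclei unthinned gave 4.08%, 22.5% and 20.4%. Telogen was lowest and anagen close to UVB by either measure.

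Within a condition, the share also moved with the barcode tag number, a part of the barcode name that the labels do not explain. Over tag numbers with at least 50 nuclei it ran from 0% to 8.80% in telogen (median 2.29%, 10 tag numbers), from 7.95% to 45.9% in anagen (18.1%, 7) and from 0% to 40.5% after UVB (19.7%, 15). UVB tag number 19 was the largest, with 2934 nuclei and 240 members (8.18%), and anagen tag number 3 held 1535 nuclei and 122 members (7.95%). Without the largest tag number of each condition the anagen share was 22.7% and the UVB share 22.8%. The 506 barcodes present in more than 1 condition gave 1012 nuclei, of which 152 (15.0%) were members, a share near that of all nuclei.

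**Figure D1:**
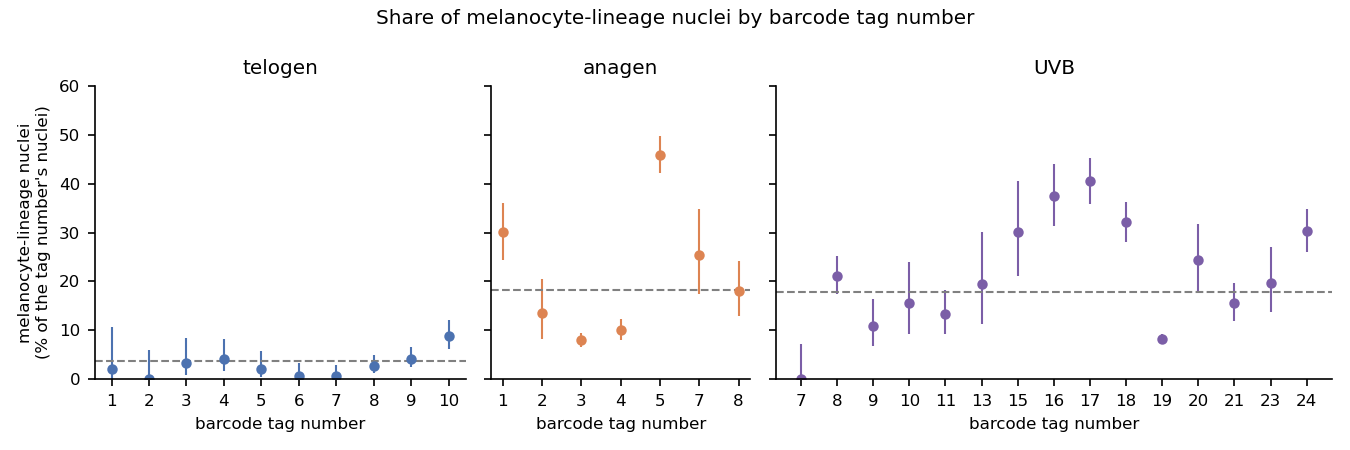
Melanocyte-lineage nuclei as a percentage of the nuclei of each barcode tag number (points, with 95% Clopper-Pearson bars for counting error), for tag numbers with at least 50 nuclei in telogen, anagen and UVB. The dashed line is the share of the whole condition (3.72%, 18.3% and 17.8%). All telogen points lie at or below 8.80%, while anagen and UVB points spread from 7.95% to 45.9% and from 0% to 40.5%.

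The markers used for the choice describe the members and support nothing by themselves. The genes most often open were Pax3, in 64.5% of telogen, 80.0% of anagen and 72.6% of UVB members, and Mitf, in 71.1%, 75.9% and 70.5%. They also have the most features in their windows, 91 and 108 of 367 in all. Tyr was open in 10.5%, 45.7% and 21.1% of members, Tyrp1 in 26.3%, 54.3% and 31.1%, and Kit in 35.5%, 71.5% and 42.6%. Each of these percentages was highest in anagen, where the members were also deepest. The median member was open at 2.5 of the 9 markers in telogen, 4 in anagen and 3 after UVB. Open features of a single marker carried 10 telogen, 15 anagen and 68 UVB members (13.2%, 2.19% and 5.84%). The members closest to the limit reached 1.50 to 1.51 times the pooled share, for example 10 marker features of 5571 open ones, and the nearest nuclei outside it reached 1.48 to 1.50, for example 10 of 5631. Exactly 3 marker features, the fewest allowed, were seen in 34 telogen, 89 anagen and 316 UVB members.

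To check the label with values the choice did not use, each marker was left out in turn and nuclei were chosen by the other 8. Levels are open features of the gene per 1000000 open features of the nuclei (FPM), and a ratio is the level in the chosen nuclei over that in the other nuclei of the condition. Mlana, which encodes a melanosomal protein, stood at 119 against 11.4 FPM in telogen, 158 against 23.9 in anagen and 148 against 46.0 after UVB. Its ratios were 10.4 (4.58 to 21.8), 6.60 (5.20 to 8.46) and 3.22 (2.73 to 3.80). For Pax3 the ratios were 9.51, 5.61 and 2.65, for Kit 6.47, 5.93 and 3.11, and for Sox10 3.76, 6.01 and 2.77. Mitf, whose window is the widest, had the lowest anagen ratio, 2.34 (2.15 to 2.54), beside 3.46 in telogen and 2.25 after UVB. Of the 27 intervals, 26 lay above 1. The exception was Tyr in telogen, at 2.14 (0.426 to 6.69) from 3 open features in the 72 chosen nuclei. Every one of the 9 markers had a lower ratio after UVB than in anagen. The other nuclei of the UVB matrix carried more marker signal than those of telogen or anagen: 0.0573% of their open features lay at the markers, against 0.0277% and 0.0451%.

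**Figure D2:**
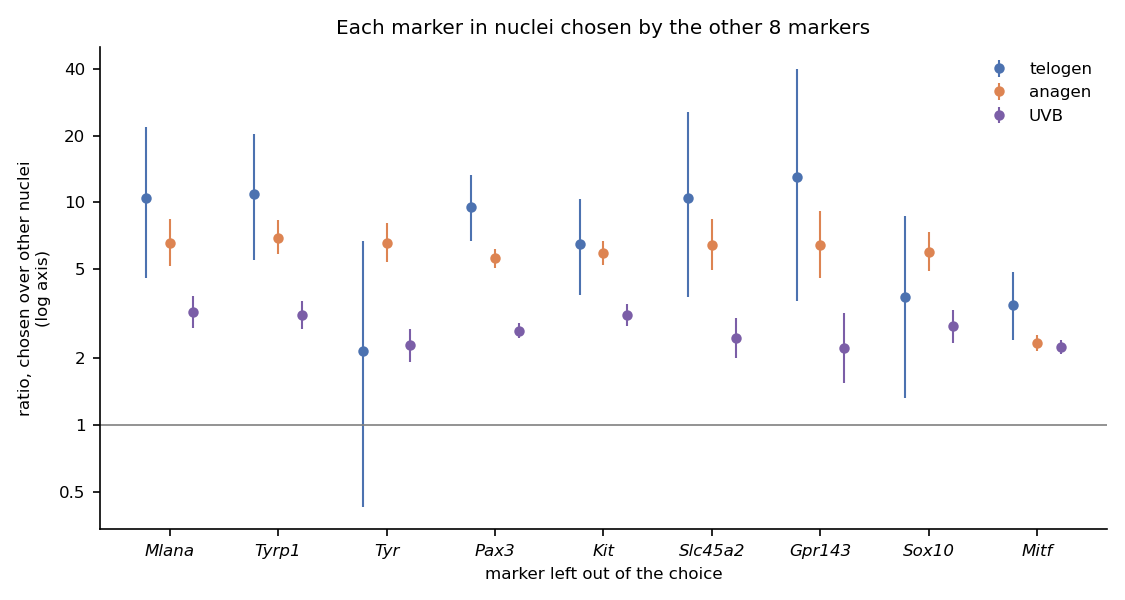
Ratio of each marker's open-feature level in nuclei chosen by the other 8 markers to that in all other nuclei of the condition, on a log axis, with exact conditional binomial 95% bars for counting error. The grey line marks a ratio of 1. Only the telogen bar of Tyr (0.426 to 6.69) crosses it, and each UVB point lies below the anagen point of the same marker.

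At single promoters, the Tyr M-box window was open at a ratio of 6.42 (3.84 to 11.2) in anagen and 4.07 (2.57 to 6.47) after UVB in nuclei chosen without Tyr. In telogen none of the chosen nuclei was open there, and the interval (0.00 to 47.6) was too wide to read. The Tyrp1 M-box window, in nuclei chosen without Tyrp1, had ratios of 26.6 (6.42 to 104.7), 4.12 (2.58 to 6.76) and 2.59 (1.90 to 3.50) in telogen, anagen and UVB.

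The Mitf starts differed from each other. In nuclei chosen without Mitf, the melanocyte start printed above was open in 1 of 48 telogen nuclei, in 58 of 623 anagen nuclei (9.31%) and in 84 of 915 UVB nuclei (9.18%). Among all other nuclei it was open in 7 of 1994 (0.351%), 19 of 3130 (0.607%) and 89 of 5638 (1.58%). Its ratios of levels were 6.50 (0.14 to 50.6), 4.99 (2.93 to 8.88) and 4.13 (3.03 to 5.63). The first Mitf start had ratios of 1.52 (0.18 to 5.72), 1.03 (0.71 to 1.48) and 1.61 (1.16 to 2.21). In anagen and after UVB the intervals of the melanocyte start and the first start did not overlap.

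Rab27a, which the choice did not use, showed the same kind of split between its starts. It is an example, and other listed genes with several starts did not all split. In anagen a pair of Tfeb starts had 1.26 (0.86 to 1.85) and 1.08 (0.78 to 1.50), and a pair of Sox6 starts 3.75 and 5.68. For Rab27a the values were as follows. The second start was open in 5 of 76 telogen members, 97 of 685 anagen members (14.2%) and 93 of 1165 UVB members (7.98%), against 4 of 1966, 35 of 3068 and 84 of 5388 other nuclei. Its ratios were 38.8 (8.36 to 195.7), 4.31 (2.90 to 6.54) and 4.10 (3.02 to 5.57). The first start had ratios of 0.82 (0.02 to 4.84), 1.15 (0.58 to 2.25) and 1.03 (0.46 to 2.12), and each of these intervals held 1. Summed over its whole window, Rab27a stood at 1.15, 2.25 and 1.49. Across all promoters tested the medians with and without this motif lay close: windows with CACGTG had a median log2 ratio of 0.00, −0.09 and 0.19, and windows without it 0.00, −0.11 and 0.18. A motif match describes the letters of a window and not a bound factor.

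**Figure D3:**
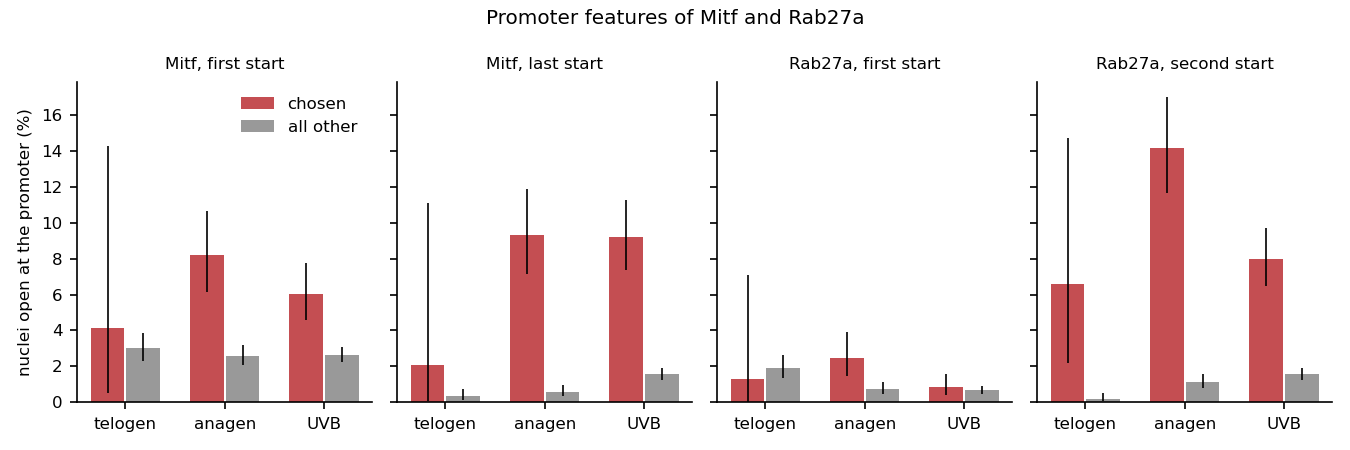
Percentage of nuclei open at the promoter windows of Mitf (first and melanocyte start, nuclei chosen without Mitf) and of Rab27a (first and second start, members), red for the chosen nuclei and grey for all others, with 95% Clopper-Pearson bars for counting error. The melanocyte start of Mitf and the second start of Rab27a reach 9.31% and 14.2% of chosen anagen nuclei, against 0.607% and 1.14% of the others.

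Dct was open in 41 of 76 telogen members (53.9%), 563 of 685 anagen members (82.2%) and 836 of 1165 UVB members (71.8%). Among the other nuclei it was open in 9.92%, 13.5% and 27.1%. The level was 666 FPM in telogen members, 738 in anagen members and 667 in UVB members, against 85.1, 173 and 273 in the others. These totals include the feature beside the Dct start, where transgene copies would be counted too. Without it members stood at 233, 533 and 264 FPM and the others at 48.6, 104 and 95.5, highest in anagen for both. Over all Dct features, with the one beside the start included, the ratios were 7.83 (5.80 to 10.4), 4.26 (3.88 to 4.68) and 2.44 (2.27 to 2.62). That feature, chr14:118052265-118052765, lies just upstream of the start, overlaps the bases printed above and had ratios of 11.9, 2.97 and 2.27. Outside that feature they were 4.80, 5.11 and 2.77. Whether transgene copies add to that feature was not tested.

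Over all protein-coding genes outside the marker windows with at least 30 open features in a condition, a gene was counted as higher at a ratio of at least 2 and as lower at a ratio of at most 0.5. Members were higher at 1122 of 13473 genes in telogen (8.33%), at 1535 of 14667 in anagen (10.5%) and at 430 of 15259 after UVB (2.82%). They were lower at 1919 (14.2%), 2132 (14.5%) and 2299 (15.1%). The counting interval lay above 1 for 6.21%, 28.5% and 23.3% of genes and below 1 for 3.79%, 28.3% and 22.6%. The telogen counts rest on 76 members with 90023 open features in all, so that 1486 telogen genes were at 0 in members. A gene at 0 in either group was set to a floor of 3 open features over the group, and the floor was not allowed to turn its direction. The median log2 ratio of all genes was 0.00, 0.01 and 0.06.

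The melanosome and pigment genes stood above that background. Of 22 such genes, 8 of 19 tested were at least 2-fold higher in telogen members, 18 of 22 in anagen members and 9 of 22 in UVB members, against 8.33%, 10.5% and 2.82% of all genes. None was lower by the same measure. Their median log2 ratio was 0.77, 1.83 and 0.92. Counting intervals lay above 1 for 8, 21 and 17 of them, against 6.21%, 28.5% and 23.3% of all genes. The list was put together with earlier results of these data known, so its direction is a description. It also includes Dct, at least 2-fold higher in each condition with ratios of 7.83, 4.26 and 2.44. Those ratios take in the feature beside the Dct start, where transgene copies would be counted too. Without the largest tag numbers the median was 1.38 in anagen and 0.44 after UVB, and with nuclei thinned to 500 open features it was 1.22 in anagen and 0.19 in telogen. The telogen median was 0.47 over genes with at least 100 open features. Cited1 in anagen passed the minimum of 30 only with the members' open features.

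Among the genes of melanosome transport, Mlph encodes melanophilin, the link between Rab27a and myosin Va. Its level was 122 against 33.3 FPM in telogen, 206 against 37.3 in anagen and 169 against 53.6 after UVB, for ratios of 3.67 (1.77 to 6.88), 5.52 (4.54 to 6.74) and 3.15 (2.70 to 3.67). Myo5a, the myosin Va gene, had ratios of 3.09, 3.56 and 2.19, and its intervals lay above 1 in each condition. Sytl2, a Rab27 effector, had 4.24, 3.57 and 2.07. Members were thus above the other nuclei in all 3 conditions at these genes. Mreg, which encodes melanoregulin, reached 2.23 in anagen and 1.23 and 1.29 in telogen and UVB.

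Rab38, which sends pigment enzymes to the melanosome, had ratios of 3.83 (2.21 to 6.27), 5.01 (4.31 to 5.83) and 2.15 (1.93 to 2.40). Its relative Rab32 stood at 1.38, 1.59 and 0.90, with the anagen interval alone (1.28 to 1.98) above 1. Hps4, a subunit of the complex that activates both, had 3.07, 3.84 and 1.92. Bloc1s5, a subunit of the organelle-building complex BLOC-1, was tested in anagen and UVB, at 6.34 (4.46 to 9.20) and 2.34 (1.25 to 4.30). Lyst, which controls lysosome size, had 1.71, 1.41 and 1.18. Atp7a, a copper transporter that loads tyrosinase, had 1.39, 2.15 and 1.52.

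The melanosome channels and exchangers split the conditions further. Oca2, an anion channel of the melanosome, had no open feature in telogen members and 101 in the other telogen nuclei. Its level was 436 against 66.1 FPM in anagen and 56.8 against 51.1 after UVB, for ratios of 6.59 (5.71 to 7.63) and 1.11 (0.89 to 1.38). A count of 0 allows up to 33.3 FPM in telogen members, close to the 36.1 of the other telogen nuclei, so a difference was not detectable there. Slc24a5, a cation exchanger, likewise had no open feature in telogen members, beside 13 in the others, and ratios of 6.12 (4.63 to 8.21) and 3.40 (2.52 to 4.58) in anagen and UVB. Slc24a4, its relative, had 1.28, 3.73 and 1.03. Anagen members were the ones well above their other nuclei at Oca2 and Slc24a4.

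Trpm1, a channel gene and known Mitf target, had 133 against 104 FPM in telogen, 846 against 181 in anagen and 235 against 140 after UVB. Its ratios were 1.28 (0.65 to 2.27), 4.69 (4.28 to 5.13) and 1.68 (1.50 to 1.88). Mcoln3, a lysosomal calcium channel, was higher throughout at 5.14, 2.65 and 2.23. Tpcn2, a channel that lowers pigment by acting on melanosome pH, was the pigment gene furthest on the low side, at 0.85, 0.50 (0.42 to 0.60) and 0.84. Slc7a11, the cystine transporter of pheomelanin synthesis, had 1.31, 1.61 and 1.08.

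Pmel, which forms the fibrils of the melanosome, had an even pattern: 333 against 178, 395 against 197 and 396 against 211 FPM, for ratios of 1.87, 2.01 and 1.87. Gpnmb, its relative, had 2.59 (0.81 to 6.38), 3.36 and 2.20. Cited1, a transcriptional cofactor of pigment cells, had 6.66 from 3 open features in members (1.23 to 23.9), 4.06 and 1.99.

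The 20 receptors and regulators of the lineage gave a median log2 ratio of 0.66 in telogen, 1.18 in anagen and 0.72 after UVB. At least 2-fold higher were 4 of 16 tested, 12 of 19 and 6 of 19, against 8.33%, 10.5% and 2.82% of all genes. At least 2-fold lower were 0, 2 and 1, against 14.2%, 14.5% and 15.1%. Sox6 and Sox5 encode partners of Sox10 that can restrain its targets. Sox6 was at 589 against 164 FPM in telogen, 834 against 172 in anagen and 670 against 266 after UVB, for ratios of 3.59 (2.65 to 4.77), 4.84 (4.41 to 5.31) and 2.52 (2.34 to 2.71). Sox5 had 2.00, 3.89 and 1.77. Foxd3, a neural crest factor, had 5.33 (1.83 to 12.8), 3.20 (2.27 to 4.57) and 2.61 (2.08 to 3.27). Members were above the other nuclei at these 3 genes in each condition.

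Mc1r, the receptor for melanocyte-stimulating hormone, had 0.68 from 1 open feature in telogen members (0.02 to 3.95), 4.33 (3.49 to 5.41) in anagen and 2.27 (1.82 to 2.82) after UVB. Met, the receptor for hepatocyte growth factor, had 1.06, 4.38 and 1.32. Ednrb, the endothelin receptor of the lineage, had 0.96 (0.26 to 2.53), 2.27 and 2.10, and Erbb3, a neuregulin receptor, 1.51, 1.44 and 1.54. The telogen intervals of these 4 receptors held 1. Irf4, which acts with Mitf at Tyr, had 1.66, 4.08 and 2.37, and Lef1, the Wnt effector, 1.28, 3.95 and 1.63.

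The Mitf relatives lay on both sides of 1. Tfeb had ratios of 2.16 (1.50 to 3.03), 3.47 (3.13 to 3.84) and 2.19 (1.99 to 2.40), while Tfe3 was at 0.81, 0.73 (0.59 to 0.90) and 0.80 (0.64 to 0.99). Tfec was at 2.23 (1.27 to 3.98) in anagen and 0.93 (0.31 to 2.32) after UVB, and passed the minimum of 30 open features in both only with those of members counted in. Tfap2a had 1.74, 2.59 and 1.77, its relative Tfap2b 2.16, 1.23 and 1.02, and the survival gene Bcl2 1.87, 2.07 and 1.82. Zeb2, a repressor with a part in melanocyte differentiation, had 1.31, 1.89 and 1.65, and Snai2, its fellow mesenchymal factor, 1.27, 1.09 and 1.14. On the low side were Alx4, a homeobox gene, at 0.32 (0.14 to 0.66) in anagen and 0.28 (0.07 to 0.76) after UVB, and Nes, the intermediate filament nestin, at 0.10 in anagen from 2 open features in members (0.01 to 0.39), though at 0.77 (0.33 to 1.61) after UVB. The remaining gene, Bcl2a1a, had no open feature in members of any condition and at most 8 in the others.

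**Figure D4:**
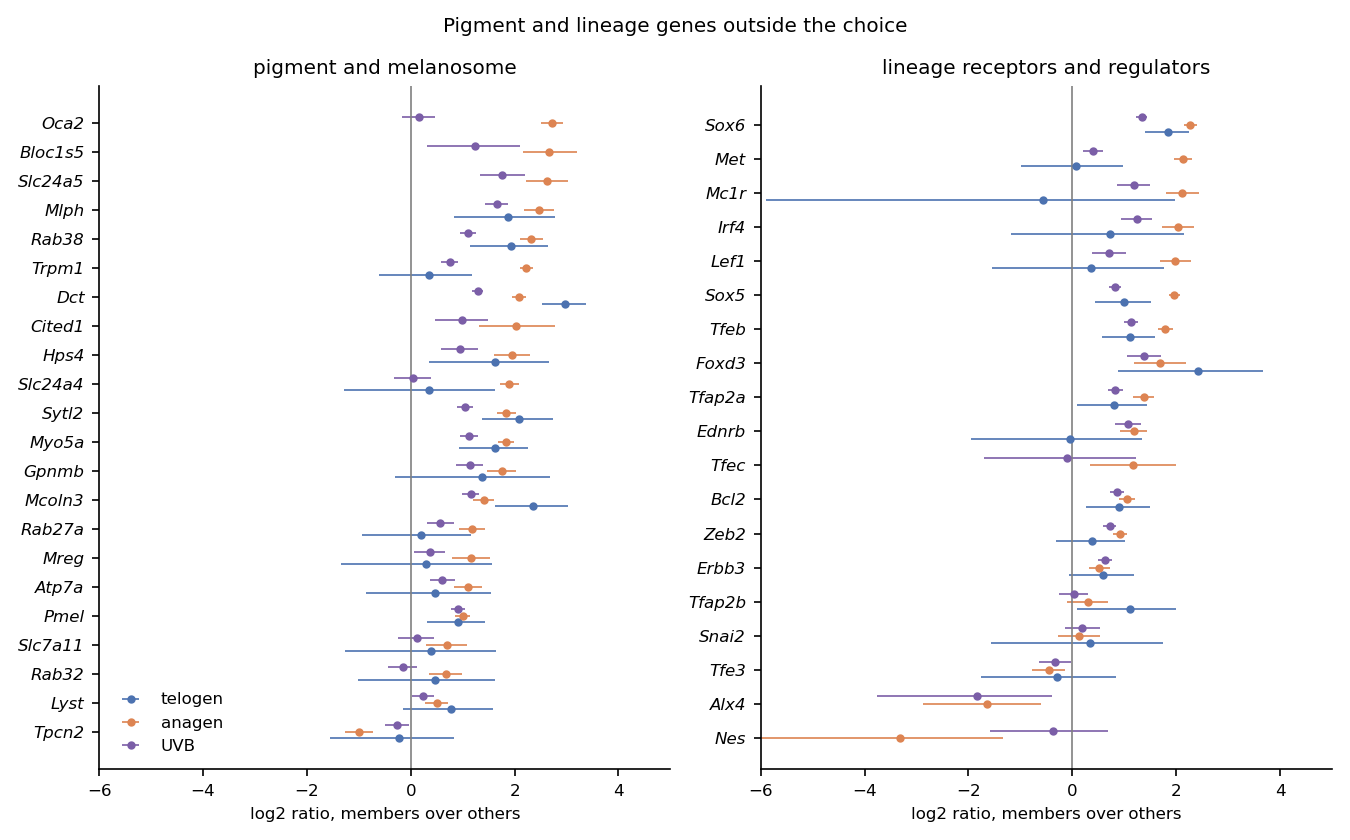
Log2 ratio of the pigment genes (left) and lineage regulators (right) in melanocyte-lineage over other nuclei, with 95% bars for counting error, for genes with at least 30 open features in anagen and UVB, ordered by the anagen value. Telogen points are left out where fewer than 30 open features or none in members were counted, and most anagen points of pigment genes lie above 1 while UVB points sit nearer 0.

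Lists of genes of other cell types differed from each other. Fibroblast genes had a median log2 ratio of −0.17 in telogen, −2.94 in anagen and −2.09 after UVB, with 2 of 11, 11 of 12 and 12 of 12 at least 2-fold lower in members. For keratinocyte genes the medians were −0.61, −1.55 and −1.76 (6 of 14, 9 of 12 and 12 of 14 lower), and for endothelial genes −0.77, −1.67 and −1.20. Pericyte and smooth muscle genes stood at −0.47, −0.95 and −1.0, T cell genes at 0.00, −1.17 and −0.88, and myeloid genes at 0.00, −0.54 and −1.56. Skeletal muscle genes stood at 0.01, 0.45 and 0.10, with 2 of 6 at least 2-fold higher in anagen and none lower in any condition. Fat cell genes stood at 0.18, −0.39 and −0.19, with 2 of 6 higher and 2 lower in anagen. Lower genes made up 14.2%, 14.5% and 15.1% of all genes in the 3 conditions, and higher genes 8.33%, 10.5% and 2.82%. In telogen 6 of the 14 keratinocyte genes were at 0 in members. So were 4 of 11 fibroblast, 3 of 10 endothelial, 2 of 7 pericyte, 2 of 6 T cell and 2 of 11 myeloid genes. Among skeletal muscle genes it was 2 of 6, and among fat cell genes 1 of 5. The floor limits how low such genes can read, so these telogen medians may understate how low members stood. Summed over the list, keratinocyte genes made up 255, 170 and 282 FPM in members against 796, 384 and 670 in the others. Fibroblast genes made up 255, 157 and 155 against 552, 1077 and 730.

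Schwann cell genes, which share a neural crest origin and Sox10 with melanocytes, had medians of −0.18, −0.11 and 0.09. Their summed levels were lower in members in each condition, at 567, 477 and 644 FPM against 676, 620 and 718. In anagen 4 of 13 were at least 2-fold higher and 2 lower, against 10.5% and 14.5% of all genes. Cdh19, a cadherin of crest-derived cells, had ratios of 3.33 (0.65 to 10.8), 4.38 and 1.89, and Mbp, a myelin protein, 0.82, 0.21 and 0.32. In telogen Cdh19 had 3 open features in members and 28 in the others, and passed the minimum only through members. Of the mast cell genes, which matter because mast cells use Kit and Mitf, 2 of 9 could be tested, and their medians were −1.55, −1.99 and −0.20. A few genes of other lists went against their group, among them Fcer1g, an Fc receptor chain of myeloid and mast cells, at 3.21, 2.70 and 3.04 and Adipoq, the adiponectin gene of fat cells, at 4.07 in anagen. In telogen the intervals of all 11 myeloid genes tested held 1, that of Fcer1g among them. Adipoq passed the minimum in anagen only through members, with 34 open features in members and 13 in the others. Cdh19, Mbp, Fcer1g and Adipoq were chosen after their values were seen. Housekeeping genes had medians of 0.00, −0.10 and 0.13.

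Within each of these lists, the gene with the highest mean level in members was as follows. Cspg4, a proteoglycan of pericytes that melanocyte precursors can also carry, stood at 178, 108 and 174 FPM in members against 86.2, 91.3 and 122, for ratios of 2.06, 1.18 and 1.43. Pmp22, a myelin gene that other cells also use, had ratios of 1.14, 0.46 and 1.01, and Spi1, the myeloid factor PU.1, 1.01, 1.37 and 1.18. Itga6, an integrin of basal keratinocytes, had 0.42, 1.05 and 1.07, and Col1a1, a fibroblast collagen, 0.39, 0.15 and 0.21. Eng of the endothelium had 0.78, 0.68 and 0.51, Cd247 of T cells 0.75, 0.38 and 0.58, and Gata2 of mast cells 0.12, 0.38 and 0.61. Mylpf of skeletal muscle had 1.01, 0.66 and 1.04 and Lipe of fat cells 0.61, 0.81 and 1.19. None of them but Cspg4 in telogen reached 2-fold in members.

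Genes of the Wnt pathway, which drives stem cells of the follicle into anagen, had medians of −0.08, 0.28 and −0.05. Of those tested, 2 of 18, 5 of 19 and 0 of 19 were at least 2-fold higher and 1, 4 and 3 were lower, against 8.33%, 10.5% and 2.82% of all genes higher and 14.2%, 14.5% and 15.1% lower. The one at the highest level in members was Lgr4, an R-spondin receptor, with 211, 256 and 170 FPM against 103, 120 and 157. Immediate early and AP-1 genes, which respond fast to stress and growth signals, had medians of −0.10, −0.69 and −0.01. Their summed level in members was 4166 FPM in telogen, 2260 in anagen and 3707 after UVB, against 4176, 3568 and 3579 in the other nuclei. Jun, the one at the highest level, had 422, 209 and 398 against 385, 352 and 379. In anagen 4 of 18 were at least 2-fold lower (14.5% of all genes were) and 13 intervals lay below 1 (28.3% of all genes). After UVB 6 intervals lay above 1 and 5 below, near the 23.3% and 22.6% of all genes. With anagen members deeper than their other nuclei, the part that depth has in these values was not tested.

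**Figure D5:**
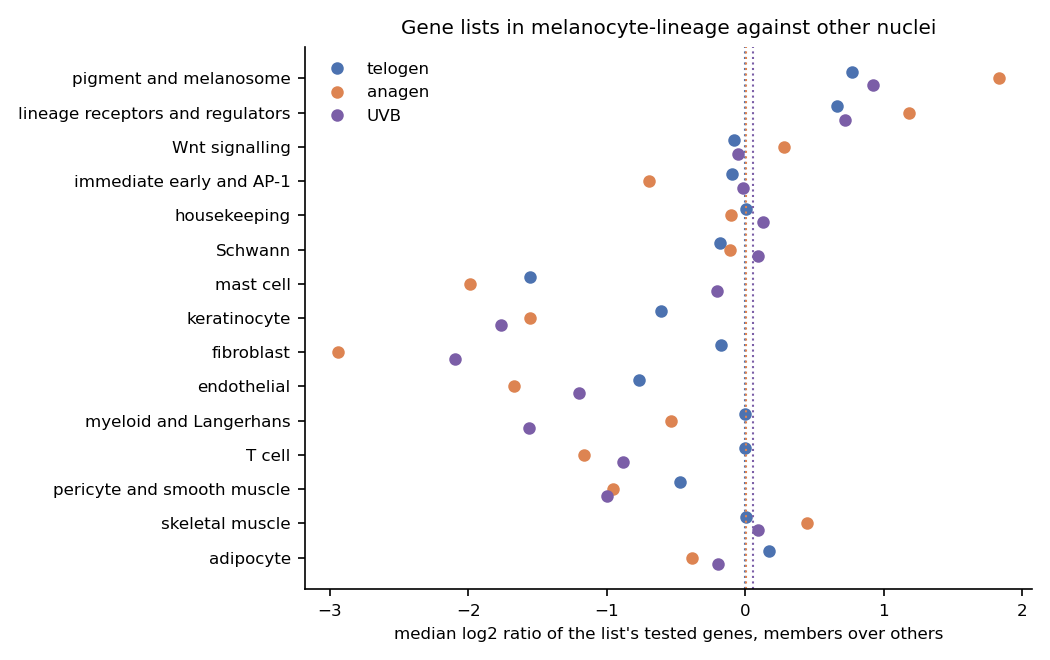
Median log2 ratio, melanocyte-lineage over other nuclei, of the tested genes of each list in telogen, anagen and UVB (points), with dotted lines at the median of all genes in each condition (0.00, 0.01 and 0.06). Pigment genes (0.77, 1.83 and 0.92) and lineage regulators (0.66, 1.18 and 0.72) lie to the right, and fibroblast, keratinocyte and endothelial genes to the left.

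In all 3 conditions together, 117 of 13313 genes (0.879%) were at least 2-fold higher in members and 344 (2.58%) at least 2-fold lower. Of the 117, 110 had at least 30 open features in the other nuclei alone. The count of higher genes depended on UVB tag number 19: without it the count was 18, and without the largest tag numbers of all 3 conditions it was 10. It was 60 without nuclei above 3 times the median depth, 31 with features near gene ends in place of whole gene windows, and 14 in thinned nuclei. The count of lower genes was 181 without the largest tag numbers, 71 with gene ends and 15 in thinned nuclei.

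The 15 highest genes, ranked by the smallest of the 3 ratios among 8790 genes with at least 100 open features in each condition, were Fstl4, Prtg, Mlph, Plekhm2, Eya1, Padi2, Pde1c, Mapkap1, Enpp2, Bcas3, Galm, Ctnnbl1, Ptprj, St3gal6 and Megf10. The minimum of 100 counts members too. Prtg and Mlph, at 80 and 93 open features in the other telogen nuclei, passed it in telogen only through members. Fstl4, a follistatin-like gene at the head of the ranking, had 35 open features in telogen members, 1925 in anagen members and 969 in UVB members, against 157, 477 and 1022 in the others. Its ratios were 6.93 (4.66 to 10.0), 6.28 (5.68 to 6.96) and 3.51 (3.21 to 3.84). It was higher in members in 19 of the 19 tag numbers with at least 20 members. Those tag numbers were 1 in telogen, 6 in anagen and 12 in UVB. Prtg, which encodes the surface protein protogenin, had 8.93, 4.62 and 3.19 and was higher in 18 of 19.

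Plekhm2, an adaptor that couples lysosomes to kinesin, had 5.40 (3.35 to 8.38), 2.88 (2.50 to 3.31) and 3.09 (2.73 to 3.49). Eya1, a developmental cofactor and phosphatase, had 3.05, 4.90 and 2.77. Pde1c, a calmodulin-dependent phosphodiesterase, had 3.28, 3.87 and 2.70, Mapkap1, a subunit of mTOR complex 2, 4.18, 3.51 and 2.67, and Enpp2, the enzyme autotaxin, 4.65, 3.16 and 2.61. Megf10, an engulfment receptor, had 4.59, 5.64 and 2.53. Each of the 15 was higher in at least 16 of the 19 tag numbers, Padi2 being the one at 16. The genes were ranked on the same nuclei, so this agreement was partly built in and is a description. Bcas3 had 3.95, 4.88 and 2.60 over its window, but in telogen its gene ends gave a log2 ratio of −2.37.

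The 10 lowest genes were Il1r2, Htra1, Lrrc32, Plekha6, Fbln1, Il1r1, Tgfbi, Tmem132c, Ntn1 and Il6ra. Il1r2, the interleukin 1 decoy receptor, had 1, 41 and 23 open features in members against 243, 523 and 692, for ratios of 0.13 (0.00 to 0.72), 0.12 (0.09 to 0.17) and 0.12 (0.08 to 0.19). Il1r1, the signalling receptor, had 0.14, 0.09 and 0.18, and Il6ra, the interleukin 6 receptor, 0.20, 0.15 and 0.09. Fbln1, an extracellular matrix gene, had 0.14, 0.17 and 0.09, and Ntn1, the guidance cue netrin 1, 0.19, 0.11 and 0.18. Of the 19 tag numbers, Fbln1 and Tgfbi were higher in members in 2, Tmem132c in 1, and the other 7 in none. The lowest genes too were ranked on the same nuclei, so these counts are a description.

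At single regions, 151 of 16914 features open in at least 30 nuclei of each condition (0.893%) were at least 2-fold higher in members in all 3 conditions, and 103 (0.609%) were lower. The minimum of 30 counts members too, and 83 of the 151 reached it in some condition only through the members, so their direction was built in. Of the 15291 regions with at least 30 open nuclei among the others alone, 68 (0.445%) were higher and 102 (0.667%) lower, a filter added after the data were seen. Of the 151, 10.6% lay within 1 kb of a gene end, against 63.1% of all regions tested, and 41.7% lay outside gene windows, against 13.3%. Of the 68 with enough other nuclei, 4.41% lay within 1 kb of a gene end, against 65.0% of the 15291. Of the 103 lower regions, 24.3% were near a gene end. Without nuclei above 3 times the median depth 69 regions were higher, and among regions open in at least 100 nuclei of each condition none was.

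The 10 regions ranked highest had 20 to 29 open nuclei among the other telogen nuclei, so each passed the minimum in telogen only through members, and their values are a description. The one ranked first lies inside Sox6, at chr7:115624787-115625287 in the mm10 coordinates of the files. It was open in 10.5% of telogen, 15.6% of anagen and 15.7% of UVB members, against 1.22%, 1.43% and 3.54% of the other nuclei, for ratios of 10.4 (4.02 to 23.8), 3.78 (2.64 to 5.50) and 3.55 (2.88 to 4.37). A region 125643 bp from Med13l, chr5:118891081-118891581, was open in 11.8%, 22.6% and 15.7% of members and had ratios of 13.3, 4.73 and 3.46. The region chr2:84634794-84635294, inside the p120 catenin gene Ctnnd1, had 9.94, 3.76 and 3.37. A region in the shared window of Pmel and its neighbour Cdk2, chr10:128699692-128700192, was open in 9.21%, 19.3% and 11.4% of members against 1.22%, 1.27% and 2.88%, and had ratios of 9.06, 5.27 and 3.18. The region in the window of Vgll2, a transcription cofactor gene, chr10:52022219-52022719, was open in 7.89%, 33.9% and 23.4% of members against 1.37%, 2.28% and 6.01%. The other 5 of the first 10 were nearest to Igsf3, Adamtsl4, Tmem154 and Zfp217 or in the shared window of Cdc37l1 and Ak3, and their smallest ratios lay between 3.15 and 3.30.

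Open features of members were spread over the genome differently in anagen. Within 1 kb of a gene end lay 43.5% of telogen, 35.2% of anagen and 42.8% of UVB members' open features, against 41.4%, 38.0% and 38.6% in the others. Elsewhere in gene windows lay 33.5%, 45.8% and 34.4%, against 34.6%, 36.6% and 35.1%. Anagen was thus the condition in which members had the larger share away from gene ends inside genes, and both other conditions had the larger share near gene ends.

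A view of the nuclei without the marker windows and Dct placed most anagen members together. Among the 15 nearest neighbours in 30 latent components, 36.1% were members for telogen members, 79.3% for anagen members and 47.4% for UVB members, against 3.53%, 8.39% and 14.4% for the other nuclei. Neighbours from the same condition made up 87.1% and 90.8% for anagen and UVB members and 15.2% for telogen members. Of the 12348 nuclei, 2042 were telogen, 3753 anagen and 6553 UVB nuclei, so most neighbours of telogen members came from the other conditions. No member neighbour was found for 15 telogen, 20 anagen and 42 UVB members.

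The rule left melanocyte-like signal outside. Nuclei whose marker share passed but which had 1 or 2 marker features numbered 121 in telogen, 252 in anagen and 636 after UVB, with median depths of 549, 514 and 600.5 open features. Their Dct levels were 539, 619 and 686 FPM and their summed pigment genes 2592, 3317 and 3125, against 2999, 5499 and 3501 in members. The pigment sum includes Dct, so it is not separate from the Dct level. Both take in the feature beside the Dct start, where transgene copies would be counted too. In nuclei with no marker feature the pigment sum was 1155, 1371 and 1669. Of the other nuclei, 45, 225 and 522 had 8 or more members among their 15 neighbours.

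Members also carried signal of other lineages. By the same kind of rule with 10 other marker lists, 15.8% of telogen, 24.2% of anagen and 18.1% of UVB members passed at least 1, against 34.5%, 27.0% and 27.2% of the other nuclei. The Schwann list was passed by 7.89%, 8.47% and 9.79% of members, against 7.93%, 6.23% and 7.80% of the others, and the mast cell list by 0, 0 and 1 members. In anagen members passed the skeletal muscle list (4.96% against 0.978%), the fat cell list (3.50% against 0.978%), the myeloid list (2.48% against 1.11%) and the pericyte list (4.53% against 3.46%) at higher shares than the others. After UVB the skeletal muscle, fat cell and pericyte lists were also passed more often by members, at 2.32%, 1.03% and 3.52% against 1.32%, 0.538% and 3.19%. The fibroblast list was passed by 2.63%, 1.17% and 0.601% of members, against 7.17%, 13.9% and 9.65% of the others. Members that passed another list were deeper than other members, with a median of 2636 open features against 1335, and whether they are mixed barcodes was not tested. Members were also deeper than the other nuclei, at 2260 against 776 in anagen and 1326 against 868 after UVB. The part that depth has in passing a list was not tested.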

How the data were processed

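Single-nucleus ATAC-seq of sorted GFP-positive skin nuclei had been deposited as 1 matrix per condition. The deposited values are whole-number counts per 500 bp feature and nucleus (315694 features, no value above 4, 61.1% of entries at 2). The mm10 (GRCm38) build and the tools MACS2, Bowtie2 and SAMtools are listed, without versions, per the submitters' processing notes. How the authors made counts from reads, shifted cut sites, filtered nuclei or treated doublets is not given in the sources used here. Most counts come in pairs, so entries above 0 (open features) were used in place of counts, which were tried as an alternative.

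Entries sharing a barcode within a condition were counted once, keeping the deeper copy, which removed 543 telogen, 1721 anagen and 62 UVB entries. This left 2886476, 5813304 and 8773742 open features. The members, gene lists and tests were chosen with earlier results of these data known. A gene was summed over its body plus 2 kb at both ends, from RefSeq on GRCm38.p6 (18019 of 21900 protein-coding genes had a feature, 208 of 210 list genes matched). The table used has no strand, so antisense neighbours share windows, and 3.69% of features lay in more than 1 window. Intervals are at 95%, conditional binomial (exact) for ratios and Clopper-Pearson for shares. They cover counting error only. Each condition is 1 sample, so no p-value was computed, and the procedure was tested on simulated data.

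Genes are named by these rules: the pigment and lineage lists, the 15 highest and 10 lowest genes by the least extreme of the 3 ratios, the 10 highest regions, and of other lists the gene highest in members. Latent components came from TF-IDF weighted features outside the marker windows and Dct, leaving out those open in fewer than 20 nuclei and the most open 1%. No doublet caller was run, and leaving out nuclei above 3 times the median depth was an alternative. Other alternatives varied the rule, its markers and windows, the filters, the fold, depth by thinning, and tag numbers. Tables were read with pandas 2.3.3, intervals came from scipy 1.17.1, components from scikit-learn 1.9.0 with numpy 2.4.6, and plots from matplotlib 3.10.9, all under Python 3.11.15.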

Additional observations from a re-analysis of the deposited data

How the results depend on the processing

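No paired analysis was possible because each condition was 1 sample and the ratios come from no test. Of 210 main values recomputed under the alternatives, 160 stayed within their counting interval (counts of genes or regions within 1.5 times), and 50 moved. For single named genes 1320 of 1425 values kept direction and call, 103 lost the call, and 2 reversed: the log2 ratio of Bcas3 in telogen was −2.37 with gene ends, and that of Tgfbi in anagen was 0.14 in thinned nuclei. The causes were not tested.

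The telogen share of members was 4.68% with second copies kept, 7.20% with 2 or more marker features, 1.18% with 5 or more, 2.35% without Mitf and 1.44% thinned. The anagen share was 21.7% with 2 or more marker features, 13.5% with 5 or more, 15.4% at 2 times the pooled share, 16.5% without Kit, 16.6% without Mitf, 12.0% without deep nuclei, 6.10% thinned and 22.7% without tag number 3. The UVB share was 24.3% with 2 or more features, 8.97% with 5 or more, 19.2% at 1.25 times and 14.8% at 2 times the pooled share, 16.6% without flanks, 16.1% without Kit, 14.0% without Mitf, 5.95% thinned and 22.8% without tag number 19. It was 16.7% for members open at 2 or more markers, an alternative added after seeing the data, as were those by single condition's tag number, without nuclei near the rule, and without members passing another list.

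Genes higher in all 3 conditions numbered 117, and 60 without deep nuclei, 14 thinned, 10 without the largest tag numbers, 18 without that of UVB alone, 60 with at least 100 open features, 201 with at least 1, 31 with gene ends, 498 at a fold of 1.5 and 6 at a fold of 3. Lower genes numbered 344, and 130 with 5 or more marker features, 15 thinned, 181 without the largest tag numbers, 71 with gene ends, 768 at a fold of 1.5 and 82 at a fold of 3. The pigment median in anagen was 1.22 thinned, 1.38 without tag number 3 and 1.20 with gene ends, and after UVB 0.44 without tag number 19. The lineage median was 0.87 in anagen with gene ends, and after UVB 0.33 thinned, 0.47 without tag number 19 and 0.55 with gene ends. Regions higher in all 3 conditions numbered 0 with at least 100 open nuclei, 1826 with at least 10, 69 without deep nuclei and 68 with at least 30 among the other nuclei alone (added after seeing the data). The telogen values rest on 76 members with 90023 open features.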
